A study of Homo sapiens with 6 samples.

Results

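The replication-dependent histone genes are the genes of the linker histone H1 and of the core histones H2A, H2B, H3 and H4 that a cell uses to package newly made DNA. They were taken as every gene with a symbol of the form H1-1 to H1-6, H2AC, H2BC, H3C or H4C plus a number that had a probe set naming it alone. This gave 56 of 18404 genes: 6 of H1, 14 of H2A, 16 of H2B, 8 of H3 and 12 of H4. RefSeq lists 69 protein-coding genes with such symbols. The other 13 were named only by probe sets that also name further genes, and these are described separately. Each of the 56 had 1 probe set of its own and a value on every array, and no filter on dim genes was used.

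The cells were H226, a human lung squamous carcinoma line, and all of them carried an inducible shRNA against p63, a transcription factor of basal and squamous epithelium in the p53 family. Their RNA was read on 6 Affymetrix HuGene 1.0 ST microarrays, with 2 in each group. Nutlin-3 cells kept the shRNA off and received 10 µM Nutlin-3, a blocker of the p53 ubiquitin ligase MDM2, for 12 h. In shp63 ON cells the shRNA was induced by doxycycline at 1 µg/mL over 48 h, without Nutlin-3. Control cells grew with the shRNA off and without either agent. The comparison of shp63 ON with control asks what p63 loss does to the cells, and doxycycline, its duration and the shRNA cannot be told apart in it, since no array held doxycycline alone. Whether the 2 replicates of a group were separate cultures is not stated, and p-values therefore cover the spread between arrays, which may be technical.

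Values were log2 probe set intensities as deposited, with array medians of 6.57 to 6.70. Replicate arrays correlated across all genes at r = 0.997 to 0.998. In the control pair, 44 of the 56 histone genes read higher on replicate 2, against 51.1% of all genes, and their median difference was 0.17. H4C14 had the widest gap of that pair (0.65). The p53 target CDKN1A, the cyclin-dependent kinase inhibitor p21, read 11.85 and 11.84 with Nutlin-3, against 10.21 and 10.30 in control. Basal keratin KRT5 read 11.87 to 12.39 and simple keratin KRT8 13.27 to 13.53 over the 6 arrays, where the median gene read 7.30. Of 9 epithelial and squamous markers, 8 had a mean above that median. The other, KRT15, had a mean of 7.17 and read 6.76 and 6.74 in control. Of 5 mesothelial markers, MSLN (9.76 to 10.09) and BNC1 (9.45 to 10.55) read above that median, and WT1 (5.995 to 6.44), CALB2 (6.09 to 6.35) and LRRN4 (5.76 to 6.23) below it. The level of the shRNA's target was not analysed here.

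Replication-dependent histone genes are switched on as cells enter S phase and shut down when DNA synthesis stops. Their coactivator NPAT, activated by cyclin E and CDK2, drives transcription at the histone locus body, and the H4 promoters also bind HINFP. Their mRNAs lack introns and, in cycling cells, end in a conserved stem-loop bound by SLBP in place of a poly(A) tail. The labels name a standard Affymetrix labelling protocol and do not say how the RNA was primed, so the share of transcripts without a tail that was captured is not known. Genes of a class are close copies, and most H4 genes encode the same H4 protein, so probes for one gene may also bind transcripts of another. Members are thus not independent measurements. In cultures of mixed cell cycle phase, fewer cells in S phase and less histone mRNA per cell cannot be told apart.

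Many histone genes were lower with Nutlin-3, more of them passed the test with the p63 shRNA on, and the H3 class had the lowest median in each comparison. With Nutlin-3, 26 of the 56 fell and none rose, against 8.89% of all 18404 genes that fell and 9.64% that rose (limma, Benjamini-Hochberg adjusted p under 0.05 over all genes). At an unadjusted p under 0.05, 0 members were higher with Nutlin-3, and 0 in an analysis of variance without moderation. In shp63 ON, 37 fell and 2 rose, against 16.5% and 19.7% of all genes. The median log2 fold change of the members was −0.35 with Nutlin-3 and −0.49 in shp63 ON, beside −0.0025 and 0.04 for all genes. Falls of at least 2-fold numbered 6 with Nutlin-3 and 16 in shp63 ON, a size that 0.706% and 1.51% of all genes reached. On 37 members both Nutlin-3 arrays lay below both control arrays, and on 44 both shp63 ON arrays did, against 30.3% and 30.4% of all genes. Both arrays lay above control on 0 members with Nutlin-3 (30.2% of all genes) and on 2 in shp63 ON (41.3%). These comparisons share the 2 control arrays.

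**Figure D1:**
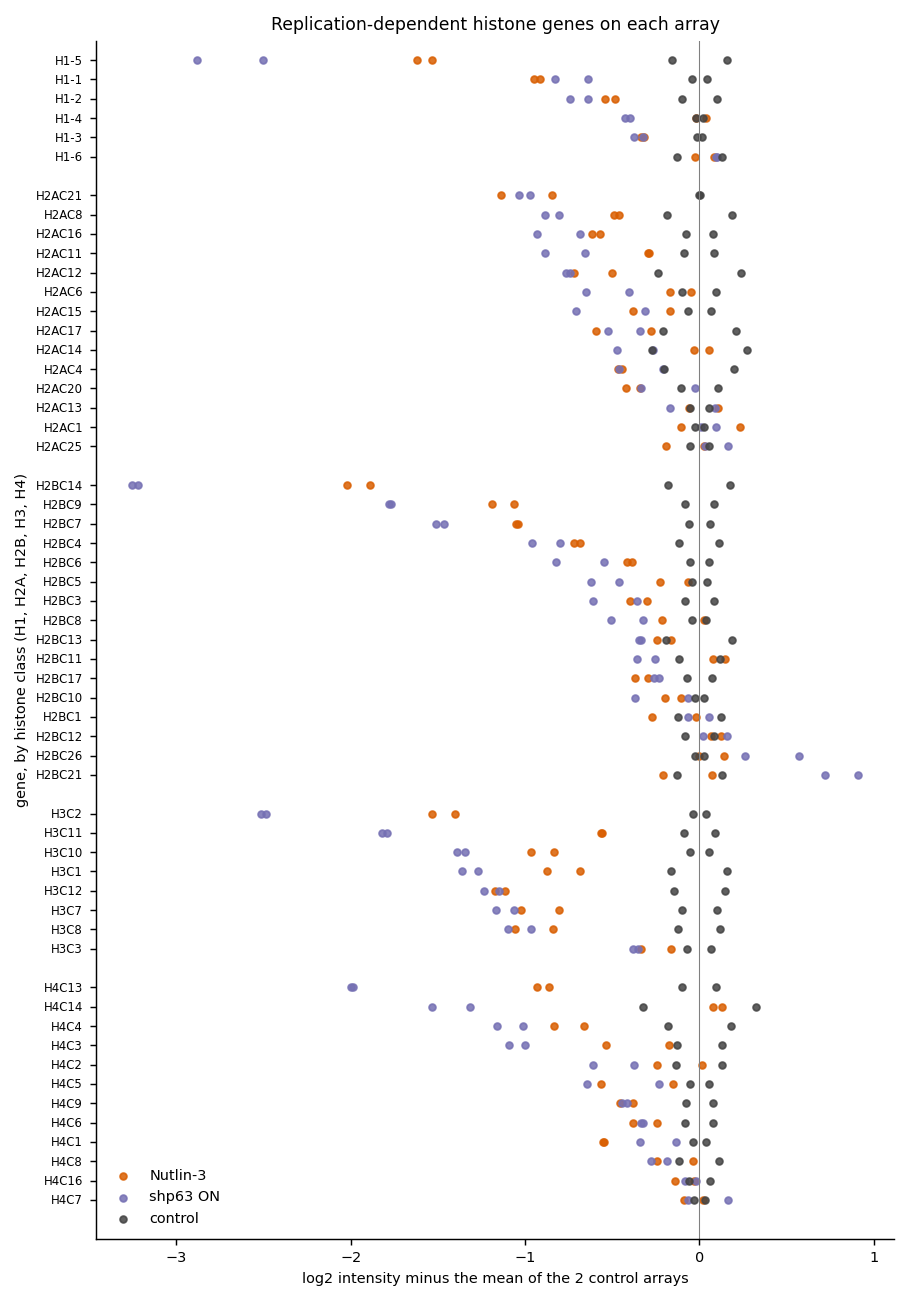
Each row is 1 of the 56 histone genes, grouped by class and ordered by the change in shp63 ON, and each point is 1 array, as log2 intensity minus the mean of the 2 control arrays. The shp63 ON points of H2BC14, H1-5 and H3C2 lie farthest left and those of H2BC21 farthest right.

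The classes differed in how many members fell. Of 8 H3 genes, 7 fell with Nutlin-3 (median log2 fold change −0.91) and all 8 fell in shp63 ON (−1.26). Of 6 H1 genes, 4 and 5 fell, with medians of −0.42 and −0.55. Of 12 H4 genes, 5 and 7 fell, with medians of −0.33 and −0.43. Of 14 H2A genes, 4 and 7 fell, with medians of −0.34 and −0.47. Of 16 H2B genes, 6 and 10 fell and 0 and 2 rose, with medians of −0.18 and −0.38. The H2B class held the widest range in shp63 ON, from −3.24 to 0.81. Differences between classes were not tested, since members of a class share sequence.

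**Figure D2:**
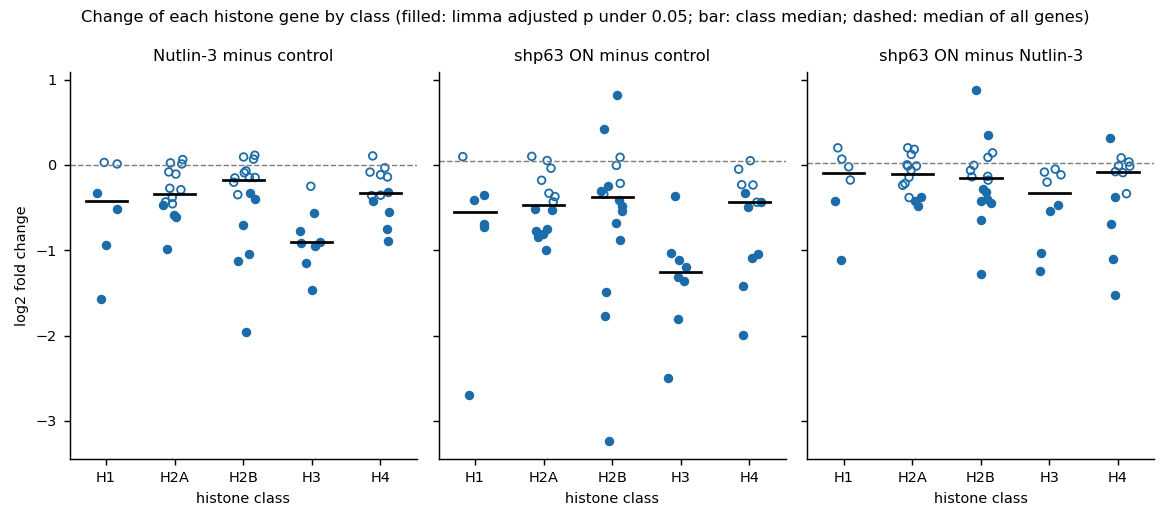
Points are histone genes by class, with the log2 fold change on the vertical axis in 3 panels (Nutlin-3 minus control, shp63 ON minus control, shp63 ON minus Nutlin-3); filled points passed limma at an adjusted p under 0.05, bars are class medians and the dashed line is the median of all genes. The H3 bar lies lowest in every panel, at −0.91, −1.26 and −0.33.

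Promoter sequences are shown for the H2B, H3 and H4 genes with the largest fall in their class (H2BC14, H3C2, H4C13) and for H2BC21, the larger of the 2 rises. They run from 250 bases before to 50 after the gene start, 5′ to 3′ on the gene's strand, from RefSeq on GRCh38.p14. The windows are chr6:27814772-27815071 (plus strand) for H2BC14, chr6:26032050-26032349 (minus) for H3C2, chr6:27873485-27873784 (minus) for H4C13 and chr1:149886633-149886932 (minus) for H2BC21. Capitals mark matches on either strand to 5 motifs. The letters TATAAA form the box that positions the polymerase. The others are CCAAT, the octamer ATTTGCAT, which POU2F1 binds, the element TTTGAA of cell cycle promoters, and GGTCCG.
H2BC14: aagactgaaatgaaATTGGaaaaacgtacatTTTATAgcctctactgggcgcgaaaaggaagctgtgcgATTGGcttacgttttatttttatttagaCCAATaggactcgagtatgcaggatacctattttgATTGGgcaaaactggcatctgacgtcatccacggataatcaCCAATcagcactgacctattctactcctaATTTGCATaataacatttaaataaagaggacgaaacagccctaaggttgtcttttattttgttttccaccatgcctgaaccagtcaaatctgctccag
H3C2: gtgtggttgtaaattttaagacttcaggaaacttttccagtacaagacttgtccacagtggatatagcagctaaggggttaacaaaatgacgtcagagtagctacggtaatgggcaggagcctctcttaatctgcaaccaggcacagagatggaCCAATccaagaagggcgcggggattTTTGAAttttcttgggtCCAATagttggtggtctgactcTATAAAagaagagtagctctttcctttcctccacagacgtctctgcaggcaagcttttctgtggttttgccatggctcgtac
H4C13: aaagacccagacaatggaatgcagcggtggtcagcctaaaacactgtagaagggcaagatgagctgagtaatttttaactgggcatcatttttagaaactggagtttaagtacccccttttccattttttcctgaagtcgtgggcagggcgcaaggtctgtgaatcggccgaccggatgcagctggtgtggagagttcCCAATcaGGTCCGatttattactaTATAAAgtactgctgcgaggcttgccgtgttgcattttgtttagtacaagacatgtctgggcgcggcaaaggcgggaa
H2BC21: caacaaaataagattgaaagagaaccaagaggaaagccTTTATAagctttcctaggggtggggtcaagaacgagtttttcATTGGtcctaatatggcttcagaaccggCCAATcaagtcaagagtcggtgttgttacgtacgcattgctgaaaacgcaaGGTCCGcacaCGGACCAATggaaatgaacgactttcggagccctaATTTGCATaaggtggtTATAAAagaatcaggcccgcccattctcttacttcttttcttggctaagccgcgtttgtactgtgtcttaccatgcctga
H2BC14 and H2BC21, which moved in opposite directions in shp63 ON, each carry the octamer, 48 and 46 bases before the start, and each carry several CCAAT matches. H3C2, H4C13 and H2BC21 each hold a TATAAA, 32, 28 and 30 bases before the start. Matches on the other strand stand at 212 bases in H2BC21 and 219 in H2BC14. H4C13 holds GGTCCG 45 bases before its start, and H2BC21 holds it at 81 and 91 bases.

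Of the 56 members, 51 had a promoter in the RefSeq table, and their windows shared letters by class. CCAAT stood in 44 of 51 (86.3%), against 39.7% of all 27305 genes with a promoter there, and TATAAA in 34 of 51 (66.7%), against 13.99%. ATTTGCAT stood in 10 of 13 H2A and 13 of 16 H2B promoters and in none of the H1, H3 or H4 promoters, against 2.19% of all, and some H2A and H2B windows overlap. GGTCCG, added after the sequences were read, stood in 9 of 10 H4 promoters, in 1 promoter each of H2A, H2B and H3, and in 13.4% of all. TTTGAA stood in 17 of 51 (33.3%, against 18.2%), either of TTTGGCGC or TTTCCCGC, letters of E2F sites, in 1 of 51 (1.96%, against 2.75%), and CGTCCG in 0 of 51 (against 11.2%). Members that fell in shp63 ON and members that did not pass had the octamer in 14 of 33 and 8 of 16, and TATAAA in 22 of 33 and 11 of 16. They had TTTGAA in 13 of 33 and 3 of 16, CCAAT in 30 of 33 and 12 of 16, and GGTCCG in 7 of 33 and 4 of 16, and none of these shares was tested. These matches are descriptions of the letters, and binding was not measured.

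Among the linker histones, which bind DNA between nucleosomes, H1-5 moved most. It read 8.44 and 8.36 with Nutlin-3, 7.47 and 7.09 in shp63 ON, and 9.82 and 10.13 in control. The 3 groups did not overlap. The fall was 2.98-fold with Nutlin-3 (log2 fold change −1.58, SE 0.14, limma adjusted p = 0.000313) and 6.47-fold in shp63 ON (−2.69, SE 0.14, limma adjusted p = 2.22e-05). H1-4 read 13.10 and 13.16 with Nutlin-3, 12.69 and 12.72 in shp63 ON, and 13.10 and 13.14 in control. It fell in shp63 ON (−0.41, SE 0.06, limma adjusted p = 0.00242), and its Nutlin-3 arrays overlapped control (0.01, SE 0.06). H1-1 (−0.93 with Nutlin-3 and −0.73 in shp63 ON), H1-2 (−0.51 and −0.69) and H1-3 (−0.33 and −0.35) fell in each comparison, the last not with Nutlin-3 when control replicate 1 or control replicate 2 was left out (limma adjusted p = 0.0779 and 0.0553). H1-6, the linker histone of the testis, read 4.66 to 4.91 on all 6 arrays, the groups overlapped, and it did not pass (0.03, SE 0.09, and 0.10, SE 0.09).

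Of the H2A genes, H2AC21 had the largest fall in each comparison. It read 8.52 and 8.22 with Nutlin-3, 8.32 and 8.39 in shp63 ON, and 9.36 and 9.36 in control, so both treated groups lay below control and overlapped each other. Its log2 fold change was −0.99 with Nutlin-3 (SE 0.10, limma adjusted p = 0.000481) and −1.002 in shp63 ON (SE 0.10, limma adjusted p = 0.000359). H2AC8, H2AC12 and H2AC16 also fell in each comparison (−0.47, −0.61 and −0.59 with Nutlin-3; −0.85, −0.75 and −0.81 in shp63 ON). With Nutlin-3 the H2AC8 call held in 11 of 16 alternatives and was lost on leaving out control replicate 2 (limma adjusted p = 0.0944), Nutlin-3 replicate 1 (0.0819) or Nutlin-3 replicate 2 (0.0973). That of H2AC12 held in 9 of 16 and was lost on leaving out control replicate 2 (log2 fold change −0.37) or Nutlin-3 replicate 2 (−0.50). It was also lost with only the 2 groups compared (limma adjusted p = 0.0511), the same fit as leaving out either shp63 ON array. That of H2AC16 was lost without control replicate 1 (0.0512). H2AC6, H2AC11 and H2AC15 passed in shp63 ON (−0.53, −0.77 and −0.51) and not with Nutlin-3 (−0.11, −0.29 and −0.27). Of these, H2AC6 was lost without control replicate 2 (limma adjusted p = 0.0593), and H2AC15 without control replicate 1 (0.0595), control replicate 2 (0.121) or shp63 ON replicate 2 (0.0926). The other 7 did not pass in either comparison with control. They include H2AC1, a testis H2A, at 4.30 and 4.64 with Nutlin-3, 4.41 and 4.50 in shp63 ON and 4.43 and 4.38 in control, with overlapping groups (0.06, SE 0.11, and 0.05, SE 0.11). H2AC25 read 5.61 and 5.39 with Nutlin-3, 5.62 and 5.75 in shp63 ON and 5.64 and 5.53 in control, also with overlap (−0.08, SE 0.09, and 0.10, SE 0.09).

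The H2B class held the largest fall and the 2 rises of the family. H2BC14 read 8.74 and 8.60 with Nutlin-3, 7.37 and 7.41 in shp63 ON, and 10.45 and 10.80 in control. The 3 groups stood apart, with shp63 ON lowest. The fall was 3.88-fold with Nutlin-3 (log2 fold change −1.96, SE 0.11, limma adjusted p = 3.86e-05) and 9.42-fold in shp63 ON (−3.24, SE 0.11, limma adjusted p = 6.46e-06). H2BC9 read 9.43 and 9.56 with Nutlin-3, 8.85 and 8.84 in shp63 ON, and 10.54 and 10.70 in control, in the same order of groups (−1.13 and −1.77, SE 0.08). H2BC7 (−1.05 and −1.49, SE 0.07) and H2BC4 (−0.70 and −0.88, SE 0.09) fell in each comparison too. So did H2BC6 (−0.40 and −0.68, SE 0.10) and H2BC17 (−0.33 and −0.24, SE 0.07), whose calls with Nutlin-3 held in 10 and 12 of 16 alternatives. That of H2BC6 was lost on leaving out any control or Nutlin-3 array, and that of H2BC17 without control replicate 2 or Nutlin-3 replicate 2.

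H2BC21, an H2B gene also known to yield polyadenylated mRNA outside S phase, read 7.56 and 7.84 with Nutlin-3, 8.68 and 8.49 in shp63 ON, and 7.64 and 7.90 in control. Both shp63 ON arrays lay above all others, and Nutlin-3 overlapped control. It rose in shp63 ON (log2 fold change 0.81, SE 0.12, limma adjusted p = 0.00265) and did not pass with Nutlin-3 (−0.07, SE 0.12). The 2 probe sets that name H2BC21 together with other genes went the other way in shp63 ON: the one shared with H2BC18 and H2BP1 at −0.67 (SE 0.06) and the one shared with H2BC19P and H2BC20P at −0.52 (SE 0.08). H2BC26 read 5.87 and 6.01 with Nutlin-3, 6.44 and 6.14 in shp63 ON, and 5.85 and 5.90 in control. Its rise in shp63 ON (0.42, SE 0.11, limma adjusted p = 0.0193) was lost when control replicate 1 (limma adjusted p = 0.0928), control replicate 2 (0.0746) or shp63 ON replicate 1 (0.0863) was left out, and after cyclic loess (0.0820). Over all alternatives that adjusted p ran from 0.00924 to 0.145. H2BC11 read 5.001 and 5.07 with Nutlin-3, 4.57 and 4.67 in shp63 ON, and 4.81 and 5.04 in control. Its fall in shp63 ON (−0.31, SE 0.09, limma adjusted p = 0.0332) was lost on leaving out control replicate 2 (0.187), shp63 ON replicate 1 (0.154) or shp63 ON replicate 2 (0.0655), within a range of 0.0182 to 0.187. H2BC12, an H2B gene with a known polyadenylated form, read 9.28 to 9.53 over the 6 arrays and did not pass (0.09 in each comparison, SE 0.08). The probe set that names it with H2BC12L, H2BC17 and H2BC5 fell with Nutlin-3 (−0.73, SE 0.07, limma adjusted p = 0.00524) and in shp63 ON (−0.91, SE 0.07, limma adjusted p = 0.00200).

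**Figure D3:**
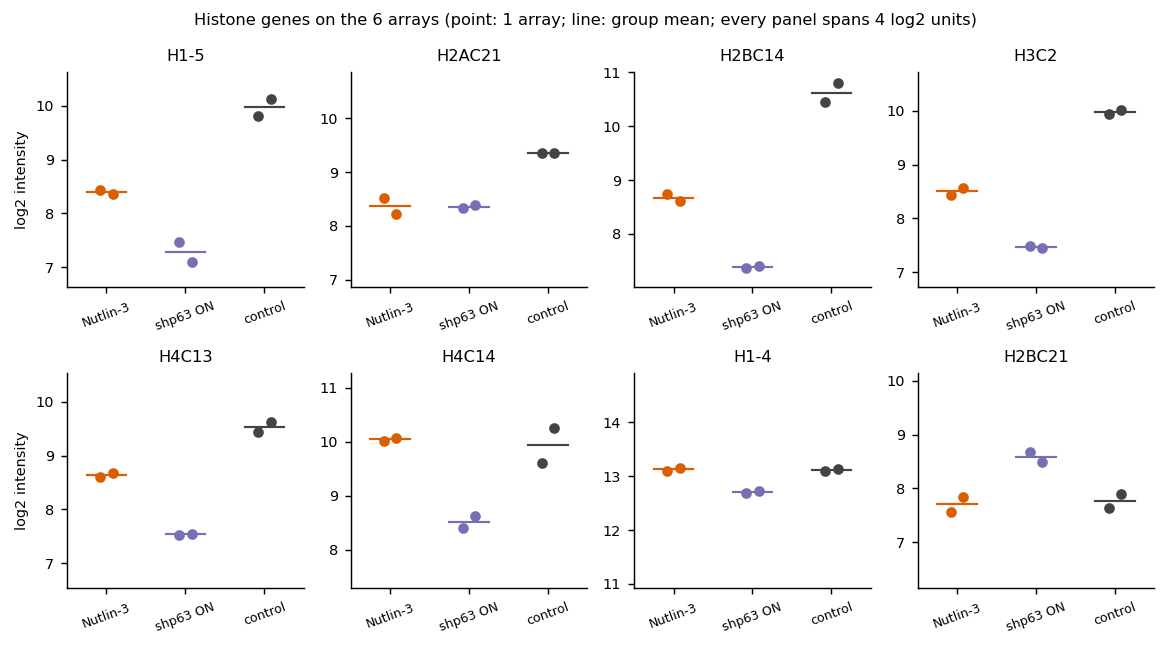
Points are the 2 arrays of each group (Nutlin-3, shp63 ON, control) as log2 intensity for 8 histone genes, lines are group means, and every panel spans 4 log2 units. Control lies highest for H1-5, H2AC21, H2BC14, H3C2 and H4C13, shp63 ON alone is low for H4C14 and H1-4, and shp63 ON is high for H2BC21.

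All H3 genes measured alone were lower in shp63 ON. H3C2 read 8.44 and 8.57 with Nutlin-3, 7.48 and 7.45 in shp63 ON, and 9.93 and 10.01 in control. Its groups stood apart, with falls of 2.76-fold with Nutlin-3 (log2 fold change −1.47, SE 0.07, limma adjusted p = 1.93e-05) and 5.65-fold in shp63 ON (−2.50, SE 0.07, limma adjusted p = 4.49e-06). H3C11 read 10.62 and 10.62 with Nutlin-3, 9.36 and 9.39 in shp63 ON, and 11.09 and 11.27 in control (−0.56 and −1.81, SE 0.08). H3C1, H3C7, H3C8, H3C10 and H3C12 fell in each comparison, with log2 fold changes of −0.78 to −1.14 with Nutlin-3 and −1.03 to −1.37 in shp63 ON. H3C3 moved least, with 6.77 and 6.94 with Nutlin-3, 6.72 and 6.75 in shp63 ON, and 7.04 and 7.17 in control. It did not pass with Nutlin-3 (−0.25, SE 0.08, limma adjusted p = 0.0761), and its fall in shp63 ON (−0.37, SE 0.08, limma adjusted p = 0.0125) was lost on leaving out control replicate 2 (0.0862) or shp63 ON replicate 1 (0.0625), within a range of 0.00595 to 0.0956.

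Several H4 genes passed in only 1 of the comparisons with control. H4C13 read 8.60 and 8.67 with Nutlin-3, 7.53 and 7.55 in shp63 ON, and 9.44 and 9.63 in control, and its groups stood apart. It fell 1.86-fold with Nutlin-3 (log2 fold change −0.90, SE 0.08, limma adjusted p = 0.000294) and 3.99-fold in shp63 ON (−1.99, SE 0.08, limma adjusted p = 7.52e-06). H4C14 read 10.02 and 10.07 with Nutlin-3, 8.41 and 8.62 in shp63 ON, and 9.62 and 10.26 in control. Nutlin-3 lay inside the control range (0.11, SE 0.19), while shp63 ON lay below it (−1.42, SE 0.19, limma adjusted p = 0.00134). The probe set that names H4C14 with H4C15 did not share this fall. It did not pass in shp63 ON (0.14, SE 0.12) and rose with Nutlin-3 (0.68, SE 0.12). H4C3, like H4C14 on its own probe set, passed in shp63 ON (−1.04, SE 0.13) and not with Nutlin-3 (−0.35, SE 0.13). H4C1 passed with Nutlin-3 (−0.55, SE 0.08) and not in shp63 ON (−0.24, SE 0.08, limma adjusted p = 0.0579). H4C4, H4C6 and H4C9 fell in each comparison (−0.75, −0.31 and −0.42 with Nutlin-3; −1.09, −0.33 and −0.43 in shp63 ON). The H4C6 call with Nutlin-3 held in 5 of 16 alternatives. It was lost after each other normalization and on leaving out either control array or Nutlin-3 replicate 1 (log2 fold change −0.23 without control replicate 2). It was also lost with only the 2 groups compared (limma adjusted p = 0.0570), the same fit as leaving out either shp63 ON array. In shp63 ON the H4C6 call held in 12 of 16, and was lost on leaving out control replicate 2 (0.111), shp63 ON replicate 1 (0.0738) or shp63 ON replicate 2 (0.0636). That of H4C9 with Nutlin-3 was lost without control replicate 2 (0.0603). H4C7 read 4.42 and 4.53 with Nutlin-3, 4.68 and 4.45 in shp63 ON and 4.55 and 4.48 in control, with overlapping groups. H4C5, H4C8 and H4C16 did not pass in either comparison with control.

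Position in the genome gave a further grouping. By their older names, 49 members belong to the HIST1 cluster, 4 to HIST2, 2 to HIST3 and 1 to HIST4. In shp63 ON, 35 of the 49 HIST1 genes fell and none rose, and 2 of the 4 HIST2 genes fell. Of all genes 16.5% fell and 19.7% rose there. The median log2 fold change was −0.51 for HIST1 and −0.59 for HIST2. The 2 rises were H2BC21 of HIST2 and H2BC26 of HIST3. Differences between clusters were not tested. Within the family, 9 pairs of an H2A and an H2B gene stand head to head, and their promoter windows overlap by 253 to 286 bases. In 3 of these pairs both genes fell in shp63 ON (H2AC6 and H2BC4, H2AC8 and H2BC8, H2AC11 and H2BC11). In 2 only the H2B gene did (H2BC14 and H2BC17), and in 4 neither did. With Nutlin-3 both genes fell in 0 pairs, only the H2A gene in 1, only the H2B gene in 3 and neither in 5. Taken singly, 8.89% of all genes fell with Nutlin-3 and 16.5% in shp63 ON. The calls of H2BC8 and H2BC17 in shp63 ON held in 12 and 10 of 16 alternatives. H2BC8 was lost without control replicate 1 (limma adjusted p = 0.0537), control replicate 2 (0.0938) or shp63 ON replicate 2 (0.0876), and H2BC17 without control replicate 2 (0.194), shp63 ON replicate 1 (0.0965) or shp63 ON replicate 2 (0.121). The widest gap was in H2AC14 and H2BC14. With a mean of 4.04, against a lowest value of 2.94 over all probe sets, H2AC14 had little room to fall. H2AC14 read 4.13 and 4.22 with Nutlin-3, 3.90 and 3.69 in shp63 ON, and 3.89 and 4.43 in control, and did not pass (0.01 and −0.37, SE 0.16), beside falls of −1.96 and −3.24 in H2BC14. In the pair of H2AC20 and H2BC21, H2AC20 did not pass in shp63 ON (−0.18, SE 0.12), where H2BC21 rose.

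**Figure D4:**
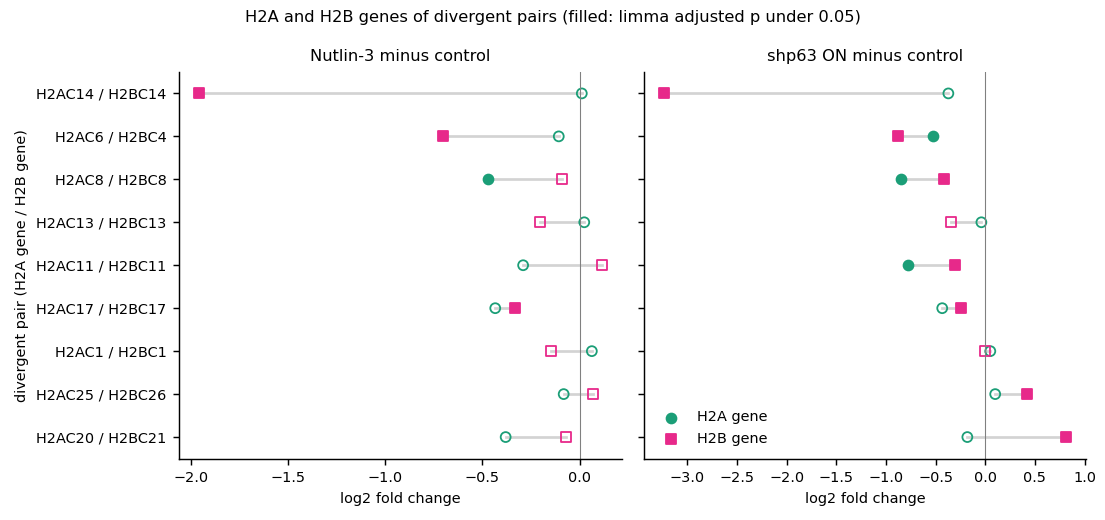
Rows are the 9 head-to-head pairs, with the log2 fold change of the H2A gene (circle) and the H2B gene (square) joined by a line, in Nutlin-3 minus control and shp63 ON minus control; filled symbols passed limma at an adjusted p under 0.05, and the horizontal scales of the panels differ. H2AC14 and H2BC14 lie farthest apart, at −0.37 and −3.24 in shp63 ON, and H2AC14 read low in every group.

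Brighter members had larger median changes. Of the 56 members, 18 had a mean above the all-gene median of 7.30, and their median log2 fold change was −0.65 with Nutlin-3 and −1.20 in shp63 ON. The 38 below it had medians of −0.30 and −0.39. In shp63 ON, 14 of the 18 and 23 of the 38 fell, beside 26.3% of all genes above that level and 6.69% below it. The part of signal level in these sizes was not tested.

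The probe sets naming several genes covered the other histone genes and also some of the 56 members. The one of H3C10 and H2AC13, the one of H2BC12 and the one of H2BC21 with H2BC19P name none of those other genes. All of these fell in each comparison with control. Counts over such probe sets thus do not describe the other histone genes alone. Of 17 such probe sets with a histone gene, 8 fell and 1 rose with Nutlin-3, and 8 fell and none rose in shp63 ON, where 3.10% and 10.5% of all probe sets fell and 3.87% and 9.50% rose (limma, Benjamini-Hochberg adjusted over all probe sets). Against Nutlin-3, 7 were lower and 1 higher in shp63 ON, beside 16.8% and 17.9% of all probe sets. Of 3 probe sets naming H3C13, H3C14 and H3C15, one read 8.53 and 8.21 with Nutlin-3, 7.75 and 7.54 in shp63 ON, and 10.02 and 10.11 in control (−1.69 and −2.42, SE 0.13). A second was also lower (−0.97 and −1.16, SE 0.06), and another did not pass (0.04 and −0.16, SE 0.13). The rise with Nutlin-3 was on the probe set for H4C14 and H4C15, at 6.74 and 6.47 with Nutlin-3, 6.06 and 6.07 in shp63 ON, and 5.80 and 6.05 in control (0.68, SE 0.12, limma adjusted p = 0.0333).

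Genes for making histone mRNA were measured beside their targets. Of 18 measured genes for histone mRNA transcription and processing, 4 fell and 1 rose with Nutlin-3 (8.89% and 9.64% of all genes), and 10 fell and none rose in shp63 ON (16.5% and 19.7%). The list is bright, with 16 of 18 above the all-gene median level, where 10.4% and 26.3% of all genes fell. CASP8AP2, a scaffold of histone pre-mRNA processing, fell in each (−0.93 and −0.86, SE 0.08). SLBP, the stem-loop binding protein, read 8.55 and 8.34 with Nutlin-3, 8.55 and 8.57 in shp63 ON, and 9.29 and 9.31 in control (−0.85 and −0.74, SE 0.08). NPAT (−0.48 and −0.72, SE 0.07) and the stem-loop exonuclease ERI1 (−0.58 and −0.65, SE 0.09) fell too, while HINFP did not pass (0.16 and −0.05). TUT7, a terminal uridylyltransferase, rose with Nutlin-3 (0.40, SE 0.08). The list's median was −0.03 with Nutlin-3 and −0.23 in shp63 ON.

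Histone chaperones carry new histones to DNA, and they were listed with their partners in import and acetylation, such as the importin IPO4 and the acetyltransferase HAT1. Of these 20 genes 10 fell with Nutlin-3 and 14 in shp63 ON, with no rise, and medians of −0.23 and −0.56. Of all genes 8.89% and 16.5% fell, and 10.4% and 26.3% of those above the all-gene median level, where 19 of the 20 lie. ASF1B, a chaperone of H3 and H4, read 7.23 and 7.12 with Nutlin-3, 7.53 and 7.19 in shp63 ON, and 9.11 and 9.27 in control (−2.01 and −1.83, SE 0.12). Its paralog ASF1A did not pass (−0.01 and 0.01). CHAF1B of the replication-coupled assembly factor CAF-1 (−1.30 and −1.22, SE 0.09) and MMS22L, which acts at stalled forks (−1.04 and −1.50, SE 0.07), fell in each. Of 9 replication-independent histone variants, 4 fell with Nutlin-3, and 5 fell and 2 rose in shp63 ON. The 2 rises are 22.2% of the list, near the 19.7% of all genes that rose in shp63 ON. Of these variants 8 lie above the all-gene median level, where 10.4% of all genes fell with Nutlin-3 and 26.3% in shp63 ON. H2AZ1 fell (−0.91 and −1.02, SE 0.10), as did H2AX (−0.58 and −0.63, SE 0.07). H2AJ, a variant linked to senescence, rose in shp63 ON (0.50, SE 0.09) and did not pass with Nutlin-3 (−0.01, SE 0.09). The linker variant H1-10 rose in shp63 ON (0.28, SE 0.09, limma adjusted p = 0.0406) and fell with Nutlin-3 (−0.32, SE 0.09, limma adjusted p = 0.0398). Both of its calls lay close to the threshold. With each array centred on its median, 3 variants fell with Nutlin-3 and 1 rose in shp63 ON.

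A fixed list held 7 members known to yield polyadenylated transcripts outside S phase. In shp63 ON, H2BC21 rose, H1-2, H2AC6, H2BC4 and H2BC5 fell (−0.69, −0.53, −0.88 and −0.54), and H2BC12 and H4C16 did not pass. The 1 rise is 14.3% of the list, where 19.7% of all genes rose and 16.5% fell. With Nutlin-3, H1-2 (−0.51) and H2BC4 (−0.70) fell and the other 5 did not pass, beside 8.89% of all genes that fell. These 7 genes are counted among the 56 as well.

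Set directly against Nutlin-3, shp63 ON had lower and higher histone genes and mostly higher S-phase genes. Of the 56 members, 20 were lower and 3 higher, against 24.0% and 27.5% of all genes, with a median of −0.14 (all genes 0.03). With each array centred on its median, which shifts the median of all genes in this comparison by −0.12, 27 were lower and 1 higher, beside 35.7% and 18.01% of all genes. Without moderation 10 of the 56 were lower, beside 16.7% of all genes, a share near the background. Of 19 S-phase genes, 17 fell with Nutlin-3 (median −1.54) and all 19 in shp63 ON (−1.59). Of all genes 8.89% and 16.5% fell, and 10.4% and 26.3% of those above the all-gene median level, where 16 of the 19 lie. Between the 2 treatments 13 of the S-phase genes were higher and 3 lower in shp63 ON, with a median of 0.37, and with centred arrays 11 and 5 (0.25). H4C14 (−1.53, SE 0.19, limma adjusted p = 0.000489), H2BC14 (−1.28, SE 0.11), H3C11 (−1.24, SE 0.08), H1-5 (−1.12, SE 0.14), H4C13 (−1.10, SE 0.08) and H3C2 (−1.03, SE 0.07) were at least 2-fold lower in shp63 ON, as were 2.11% of all genes. The arrays of the 2 groups stood apart with shp63 ON lower on 29 members and higher on 8, against 35.7% and 41.1% of all genes. The higher members were H2BC21 (0.88, SE 0.12), H2BC26 (0.35, SE 0.11) and H4C1 (0.32, SE 0.08). After quantile normalization, median centring or cyclic loess only H2BC21 of the 56 was higher. H2BC26 was also lost on leaving out Nutlin-3 replicate 1 (limma adjusted p = 0.123) or shp63 ON replicate 1 (0.137), and H4C1 on leaving out shp63 ON replicate 2 (0.0744).

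Several S-phase genes had another order of groups. DTL, a substrate receptor for the destruction of CDT1, read 6.34 and 6.005 with Nutlin-3, 7.76 and 7.85 in shp63 ON, and 10.29 and 10.38 in control. CCNE2, cyclin E2, read 5.50 and 5.73 with Nutlin-3, 7.34 and 7.12 in shp63 ON, and 9.54 and 9.56 in control. Both were lowest with Nutlin-3 (shp63 ON minus Nutlin-3 at 1.63, SE 0.11, and 1.61, SE 0.10), whereas H2BC14 and H3C2 were lowest in shp63 ON. The 3 S-phase genes that were lower in shp63 ON than with Nutlin-3 were thymidylate synthase TYMS (−2.24, SE 0.09), the sliding clamp PCNA (−1.66, SE 0.10) and cyclin A2, CCNA2 (−0.94, SE 0.08). Among the chaperones and their partners, NAP1L1 (−0.82, SE 0.07) and the importin IPO4 (−0.75, SE 0.06) were lower in shp63 ON, and TONSL (0.45, SE 0.07) and RBBP7 (0.31) were higher. The time of treatment differed as well (48 h and 12 h), and time, agent and the shRNA cannot be told apart here.

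**Figure D5:**
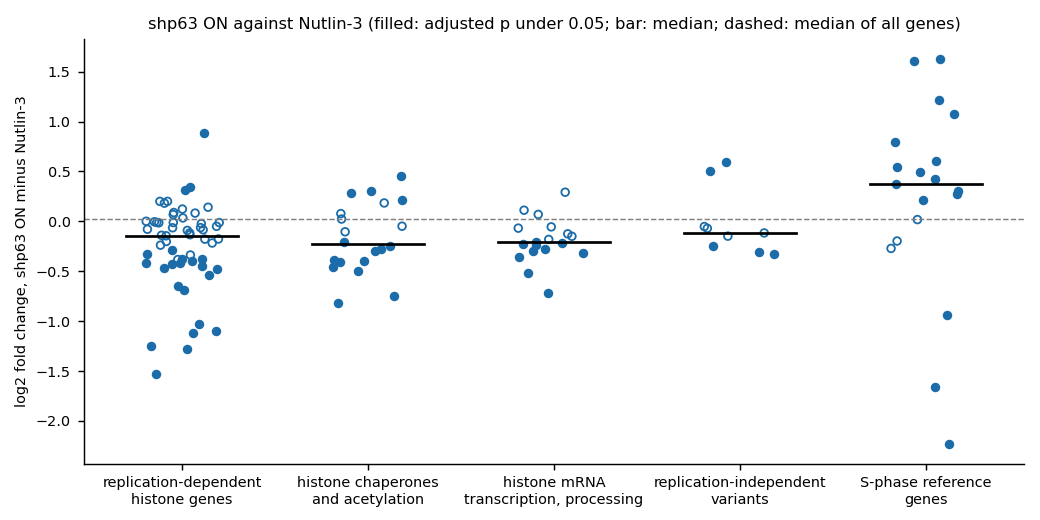
Points are genes with the log2 fold change of shp63 ON minus Nutlin-3 on the vertical axis, in the histone genes and 4 further lists; filled points passed limma at an adjusted p under 0.05, bars are list medians and the dashed line is the median of all genes. The histone bar lies at −0.14 and the bar of the S-phase genes at 0.37.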

How the data were processed

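RNA from 6 arrays was used. The authors' deposited table holds log2 probe set intensities, as the range of 2.94 to 14.9 shows. The submitters' processing notes name Partek (version not given). How background, normalization and probes were handled is not stated there. Precision is limited by the number of arrays.

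In the platform annotation 19158 probe sets name 1 gene, 1388 several and 11775 none. The brightest single-gene probe set stood for a gene, giving 18404 genes, and 19128 of the 19158 matched RefSeq by Entrez identifier. With limma 3.58.1 (R 4.3.3; lmFit, then eBayes without trend) a model of 3 group means used all 6 arrays. It left 3 residual degrees of freedom and held no batch term, since the labels name no batch. Alternatives changed the normalization, level filter, probe choice, moderation, block, arrays in the fit and each array left out in turn. Leaving out an array of the group not compared gave the same fit as using only the 2 groups compared. Counts of alternatives thus hold that fit more than once. P-values were adjusted by Benjamini-Hochberg over all genes and called under 0.05. With 2 against 2 arrays, the smallest two-sided p of an exact permutation test is 0.333. The fit was tested on simulated data. Values on every array are given for the members with the largest rise or fall in each class and comparison with control. Other genes were named from 7 fixed lists, by the largest called changes, and some after their values were seen (H1-4, H3C11, H2BC9, H2AC14, SLBP and the shared probe sets among them). Members and lists were chosen with earlier results of these data known. The epithelial and mesothelial lists serve only to check the cell line. In shp63 ON, 4 of 9 epithelial genes rose and 2 fell, and 2 of 5 mesothelial genes rose and 1 fell. Of all genes 19.7% rose and 16.5% fell there. With Nutlin-3, 3 and 1 epithelial genes rose and fell, and 1 mesothelial gene rose, beside 9.64% of all genes that rose and 8.89% that fell.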

Additional observations from a re-analysis of the deposited data

How the results depend on the processing

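Under the 17 alternatives the members' median log2 fold change kept its sign in all 3 comparisons. Only the normalization, the level filter and leaving out an array of a compared group could move that median. The moderation, block, probe choice and fitted groups leave the members' fold changes as they are. Members lower with Nutlin-3, 26 as reported, numbered 11 among the genes above the all-gene median level (18 members tested) and 9 in the analysis of variance without moderation, where 15.3% and 2.98% of all genes were lower. In shp63 ON, 37 became 15 and 20 under these settings (all genes 31.5% and 9.05%). In shp63 ON against Nutlin-3, 20 became 13 and 10 (41.1% and 16.7%), and the second is close to the share of all genes. The higher members in shp63 ON, 2 as reported, became 1 with cyclic loess, above the all-gene median level or with all probe sets as features, an alternative chosen after seeing the data, and 0 without moderation. Leaving out control replicate 1, control replicate 2 or shp63 ON replicate 1 gave 1, and leaving out any other array gave 2. The higher members in shp63 ON against Nutlin-3, 3 as reported, became 1 with quantile normalization, median centring, cyclic loess, the level filter or no moderation. Above that level the median was −0.65 with Nutlin-3, −1.20 in shp63 ON and −0.49 between them. The last, −0.14 as reported, was −0.26 with quantile normalization, −0.27 with median centring and −0.29 with cyclic loess. The level filter leaves fewer genes, and for the other settings the cause was not tested.

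Leaving out each array gave 20 to 26 members lower with Nutlin-3, 29 to 39 in shp63 ON and 16 to 21 between them. With the replicate block these were 28, 41 and 20, and every call as reported was kept. Over all genes, same-numbered arrays deviated together by r = −0.06 (Nutlin-3 and control), −0.02 (shp63 ON and control) and 0.11 (shp63 ON and Nutlin-3). The labels give such arrays only a shared number, and these correlations cannot tell whether they were paired in culture or processing. Without moderation H1-5, H2AC21 and MDM2 did not pass with Nutlin-3 (adjusted p = 0.0574, 0.0540 and 0.0721), nor H2BC21 and H4C14 in shp63 ON (0.0768 and 0.0675). With centred arrays 2609 genes rose and 1062 fell with Nutlin-3, against 1774 and 1636 as deposited, and in shp63 ON 2418 rose and 3854 fell, against 3634 and 3036. Between shp63 ON and Nutlin-3, 3314 were higher and 6565 lower when centred, against 5057 and 4424. Calls of 8 members with Nutlin-3, 20 in shp63 ON and 11 between them held in every alternative that tested the gene.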
